A study of Mus musculus with 16 samples.

Results

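The genes described here are 9 that pattern the ventral neural tube of the embryo or carry Hedgehog signalling, namely, Shh, Ptch1, Gli1, Foxa2, Nkx2-9, Nkx2-2, Nkx6-1, Nkx6-2 and Olig2. The set was selected on the measured change of Nkx2-9 between let-7a and control cells, which was among the largest, and the other genes belong to the same pathway. They are 9 of the 29997 genes named on the array, read by 13 probes on 22 spots. The levels were measured in P19 cells, a mouse embryonal carcinoma line that grows as undifferentiated stem-like cells. The 4 conditions were a control transfection, a mimic of the microRNA let-7a, siSfpq (a pool of siRNAs against Sfpq, a nuclear RNA-binding protein), and the mimic together with siSfpq (let-7a + siSfpq). Cells received siRNA and mimic at 24 nM and total RNA was taken 48 h later. Each condition had 4 arrays, and the study asked whether silencing by let-7a depends on Sfpq.

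Sonic hedgehog (Shh) is secreted by the notochord and floor plate. It binds Ptch1, which otherwise holds the transducer Smo inactive, and the signal is read out by the Gli transcription factors. Gli1 and Ptch1 are themselves switched on by the pathway, so their transcripts are widely used as its readout. In the ventral neural tube the graded signal sets up progenitor domains. Foxa2 marks the floor plate, Nkx2-2 and Nkx2-9 the domain next to it, Olig2 the motor neuron progenitors, and Nkx6-1 and Nkx6-2 a broader ventral territory. P19 cells are not neural tube, and the names of these domains describe the genes, not the cells.

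The transfected microRNA and the upstream regions of Nkx2-9 and Olig2, members with their highest level in let-7a and a window that holds the motif core searched for, are shown first. The mature let-7a is given from RefSeq with its seed, bases 2 to 8, in capitals.
mmu-let-7a-5p: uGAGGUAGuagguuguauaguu
Promoter windows of 250 bases before the transcription start were taken from RefSeq (GRCm38.p6), which held 9 windows for 7 of the 9 genes, 3 of them for Foxa2. They were searched on both strands for GACCACCCA, the consensus bound by Gli factors, and for CCACCC, the core within it. None of the 9 windows held the consensus, which 0.225% of all 32851 windows of this length hold. The core was in 4 windows, those of Nkx2-9 and Olig2 and 2 of Foxa2, whereas 28.1% of all windows hold it. The Nkx2-9 and Olig2 windows are printed 5′ to 3′ on the strand of the gene, with the core in capitals.
Nkx2-9, chr12:56613285-56613534, minus strand: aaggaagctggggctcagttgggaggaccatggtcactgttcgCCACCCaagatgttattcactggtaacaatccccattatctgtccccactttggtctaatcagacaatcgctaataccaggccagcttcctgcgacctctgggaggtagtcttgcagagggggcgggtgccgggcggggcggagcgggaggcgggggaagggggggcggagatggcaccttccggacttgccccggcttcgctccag
Olig2, chr16:91225300-91225549, plus strand: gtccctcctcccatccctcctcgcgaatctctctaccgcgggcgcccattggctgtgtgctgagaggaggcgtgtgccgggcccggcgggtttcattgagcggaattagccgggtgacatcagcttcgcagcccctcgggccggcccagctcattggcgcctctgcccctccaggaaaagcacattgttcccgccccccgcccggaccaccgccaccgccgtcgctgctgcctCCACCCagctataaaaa
The core lies 207 bases before the start in Nkx2-9 and 17 bases before it in Olig2. The arrays measured transcripts only, so a match of letters describes the window and no more.

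Levels are given as log2 intensity after quantile normalization, which can be compared between conditions for 1 gene but not between genes. Arrays 1 and 2 of a condition differed by about as little as repeat spots of 1 array, so their mean entered as a single sample. Of the 12 samples that remained each condition had 3. Sfpq itself, the target of the knockdown, was at 12.07, 11.98 and 11.99 in control and at 10.56, 11.47 and 10.61 in siSfpq (samples 1 and 2, 3, and 4), so that it was lowered least in replicate 3. The fall was 1.13 ± 0.19 (SE) on the log2 scale (adjusted p = 0.00829, limma). In let-7a + siSfpq, Sfpq was at 11.31, 11.50 and 11.40 against 11.90 to 12.04 in let-7a, a difference of -0.57 ± 0.19 that missed the threshold (adjusted p = 0.156) although all 3 samples lay lower. Against siSfpq alone Sfpq was 0.53 higher with both reagents (adjusted p = 0.105, and 0.0394 with the replicate number as a block). Leaving out replicate 3 of every condition raised the calls over all 19570 genes to between 4040 and 9214 per comparison, whereas leaving out replicates 1 and 2 or replicate 4 left 0 to 3. Tests are from the fit of all samples with no replicate block unless another fit is named. For the members the fits with the block and without replicate 3 are given where they change a call, and for other lists of genes the calls with siSfpq against control are given in all of these fits where they differ. Of 9 markers of embryonal carcinoma cells 8 were kept, and Pou5f1, Nanog, Sox2 and Lin28a were well above background on all 16 arrays. Zfp42 was well above background on 1 array. Of the 8, let-7a called 3 lower, Lin28a, Nanog and Utf1, and siSfpq called Dppa4 and Utf1 higher and Sox2 lower (without replicate 3 Nanog higher too). Of all genes let-7a called 1.86% lower, and siSfpq called 5.73% higher and 6.75% lower.

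Detection set what could be measured (the plot of levels by sample). Shh, the ligand, was not well above background on any of the 16 arrays, although its probe is spotted 10 times, so no change could be measured and 8 of the 9 genes entered the tests. Gli1 (on the probe that was kept), Ptch1, Nkx2-2 (likewise) and Nkx6-1 were well above background on all 16 arrays, Nkx6-2 on 15, Nkx2-9 on 14, Foxa2 on 12 and Olig2 on 5. Olig2 was kept only through let-7a, where it was measured on 4 arrays, against 1 in control and 0 with siSfpq, alone or with let-7a. Foxa2 likewise was kept only through siSfpq, where it was measured on 4 arrays, against 2 in control and 3 in each condition with let-7a. For these 2 genes the filter favours the direction in which that condition is higher, so differences that involve it are given as descriptions and the counts and medians of members leave both genes out.

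**Figure D1:**
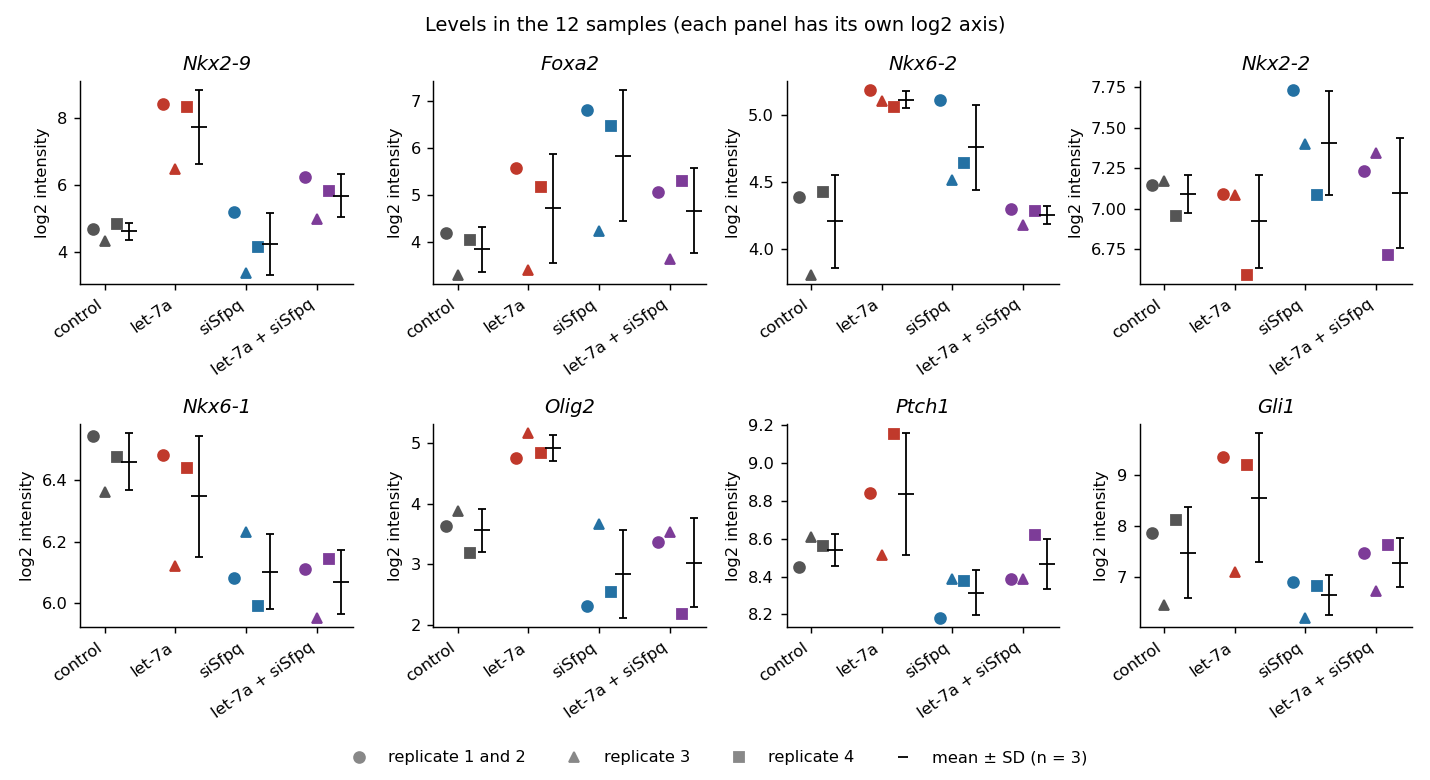
Log2 intensity (y axis, own scale in each panel) of the 8 measured genes in control, let-7a, siSfpq and let-7a + siSfpq. Circles, triangles and squares are the samples of replicates 1 and 2, 3, and 4, and black bars are mean ± SD (n = 3). Nkx2-9 lies between 6.47 and 8.40 in let-7a and between 3.38 and 6.22 in the other 3 conditions, and the triangles of Foxa2 and Gli1 are the lowest of every condition.

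Nkx2-9, a homeobox repressor of the domain beside the floor plate, gave the widest range of the 8 genes. Its probe lies at chr12:57712410-57712469 (mm9, minus strand). It was at 4.68, 4.35 and 4.84 in control and at 8.40, 6.47 and 8.31 in let-7a. All 3 let-7a samples lay above all control samples, and the mean of 7.73 ± 1.09 (SD, n = 3) stood 3.105 above the control mean of 4.62 ± 0.25, an 8.60-fold difference. This is the comparison for which the gene was chosen, so it is given as a description. In siSfpq it was at 5.21, 3.38 and 4.14, and the probe was well above background on 2 of 4 arrays. These values lie on both sides of control, with a difference of -0.38, a description because the same control samples served to choose the gene.

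With both reagents Nkx2-9 was at 6.22, 4.98 and 5.83, between let-7a and control and apart from either. Set against siSfpq alone, from arrays that played no part in choosing the gene, the difference was 1.44 ± 0.56, a 2.71-fold higher level that missed the threshold (adjusted p = 0.123, limma). It was positive in each same-numbered pair, at 1.01, 1.60 and 1.69. The call depended on the samples and on the pairing, since the adjusted p was 0.00959 with the replicate number as a block and 0.0129 without replicate 3. Against let-7a alone the level was 2.05 lower, or 4.13-fold, given as a description because the let-7a samples served to choose the gene. In order, Nkx2-9 was highest in let-7a, then in let-7a + siSfpq, control and siSfpq, and siSfpq overlapped both control and let-7a + siSfpq.

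Nkx2-2 is the closest partner of Nkx2-9 in the embryo and is expressed in the same progenitors. Its level varied over a far narrower range. It was at 7.14, 7.17 and 6.95 in control, at 7.09, 7.08 and 6.59 in let-7a, at 7.73, 7.40 and 7.09 in siSfpq and at 7.23, 7.34 and 6.71 in let-7a + siSfpq, and the 4 conditions overlapped. The difference was -0.17 ± 0.22 for let-7a against control, a description here. The tested differences were 0.32 ± 0.22 for siSfpq against control, -0.31 ± 0.22 for let-7a + siSfpq against siSfpq and 0.18 ± 0.22 against let-7a, with adjusted p values of 0.380, 0.408 and 0.826. A second Nkx2-2 probe, for another transcript, was well above background on 2 let-7a arrays and on no other array, and was not kept.

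Foxa2, a forkhead factor of the floor plate and also of node and endoderm, had its highest mean in siSfpq. Its probe lies at chr2:147868669-147868728 (mm9, minus strand). It was at 4.18, 3.30 and 4.04 in control and at 6.80, 4.23 and 6.45 in siSfpq. Every siSfpq sample lay above every control sample. The sample of replicate 3 was the lowest in all 4 conditions, with control and let-7a among them. The difference was 1.99 ± 0.73, and 2.51 ± 0.22 without replicate 3, both descriptions because the filter kept the gene through siSfpq. With no filter, where both of its probes are averaged, it was 1.54 (adjusted p = 0.219). In let-7a it was at 5.58, 3.40 and 5.16, and in let-7a + siSfpq at 5.06, 3.63 and 5.29. Against siSfpq alone the combined level differed by -1.16 ± 0.73, negative in each of the 3 pairs, likewise a description, and with no filter by -0.84 (adjusted p = 0.537). The difference from let-7a was -0.05 ± 0.73 (adjusted p = 0.992). Only 2 of 4 control arrays read the probe well above background, and a second Foxa2 probe, which overlaps it at one end, did so on 1 of 16 arrays and was not kept.

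Nkx6-2, a repressor of the broader ventral territory, lay higher with either reagent alone but not with both. It was at 4.39, 3.81 and 4.43 in control, at 5.18, 5.10 and 5.06 in let-7a and at 5.11, 4.52 and 4.64 in siSfpq. Both single treatments lay clear of control, and the difference for let-7a was 0.91, a description. In let-7a + siSfpq it was at 4.30, 4.18 and 4.29, below all samples of either single treatment and overlapping control. The differences were 0.55 ± 0.24 for siSfpq against control, -0.50 ± 0.24 for let-7a + siSfpq against siSfpq and -0.86 ± 0.24 against let-7a, with adjusted p values of 0.144, 0.195 and 0.0805. The last of these passed with the replicate block (adjusted p = 0.0211) and without replicate 3 (-0.83 ± 0.22, adjusted p = 0.0311).

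Nkx6-1, its paralog with a wider role in motor neuron progenitors, varied over a narrow range too. It was at 6.54, 6.36 and 6.48 in control, at 6.48, 6.12 and 6.44 in let-7a, at 6.08, 6.23 and 5.99 in siSfpq and at 6.11, 5.95 and 6.15 in let-7a + siSfpq. Both conditions with siSfpq lay below control. The difference for siSfpq was -0.36 ± 0.16 (adjusted p = 0.158, and 0.0145 without replicate 3, at -0.47 ± 0.12). Those for let-7a + siSfpq were -0.03 ± 0.16 against siSfpq (adjusted p = 0.924) and -0.28 ± 0.16 against let-7a (adjusted p = 0.462).

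Olig2, the basic helix-loop-helix factor of motor neuron and oligodendrocyte progenitors, was measured in let-7a cells and hardly elsewhere. Its probe lies at chr16:91228470-91228529 (mm9, plus strand). It was at 4.76, 5.16 and 4.84 in let-7a and at 3.37, 3.52 and 2.18 in let-7a + siSfpq, and the groups did not overlap. The fitted difference was -1.90, and since the gene was not well above background in let-7a + siSfpq, the level was at least 3.06-fold lower than in let-7a. This is a description, because the gene entered the fit only through its level in let-7a. With no filter the difference missed the threshold (adjusted p = 0.0778), and it was -0.61 with the authors' values and -0.37 with normexp background correction. In control Olig2 was at 3.63, 3.88 and 3.18, measured on 1 array, and in siSfpq at 2.30, 3.67 and 2.54, not well above background on any array. No fold change is given between these conditions.

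The readouts of Hedgehog signalling were well above background on all arrays. Gli1, a Gli activator that is itself a target of the pathway, was at 7.87, 6.47 and 8.12 in control and at 9.36, 7.11 and 9.20 in let-7a. The mean in let-7a was 1.07 higher, with overlap, as a description. It was at 6.92, 6.21 and 6.83 in siSfpq and at 7.48, 6.74 and 7.63 in let-7a + siSfpq. In all 4 conditions the sample of replicate 3 was the lowest. For siSfpq against control the difference was -0.83 ± 0.58, negative in all 3 pairs (adjusted p = 0.374, 0.0380 with the block). Without replicate 3 it was -1.11 ± 0.12 (adjusted p = 0.000284). Against let-7a the combined level differed by -1.27 ± 0.58 (adjusted p = 0.315, 0.0173 with the block), and without replicate 3 by -1.72 ± 0.12 (adjusted p = 0.000148). Against siSfpq it differed by 0.63 ± 0.58 (adjusted p = 0.530), and without replicate 3 by 0.68 ± 0.12 (adjusted p = 0.00312).

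Ptch1, the Hedgehog receptor and the other common readout, varied over a narrower range than Gli1. It was at 8.45, 8.61 and 8.56 in control, at 8.84, 8.51 and 9.15 in let-7a, at 8.18, 8.39 and 8.38 in siSfpq and at 8.39, 8.39 and 8.62 in let-7a + siSfpq. The mean was highest in let-7a and lowest in siSfpq, as it was for Gli1. The tested differences were -0.22 ± 0.16 for siSfpq against control, 0.15 ± 0.16 for let-7a + siSfpq against siSfpq and -0.37 ± 0.16 against let-7a, with adjusted p values of 0.389, 0.602 and 0.286. Without replicate 3 the last was -0.49 ± 0.14 (adjusted p = 0.0365). The 2 Ptch1 probes, at chr13:63610298-63610357 and chr13:63612879-63612938 (mm9, minus strand), gave -0.32 ± 0.26 and -0.42 ± 0.23 in that comparison.

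**Figure D2:**
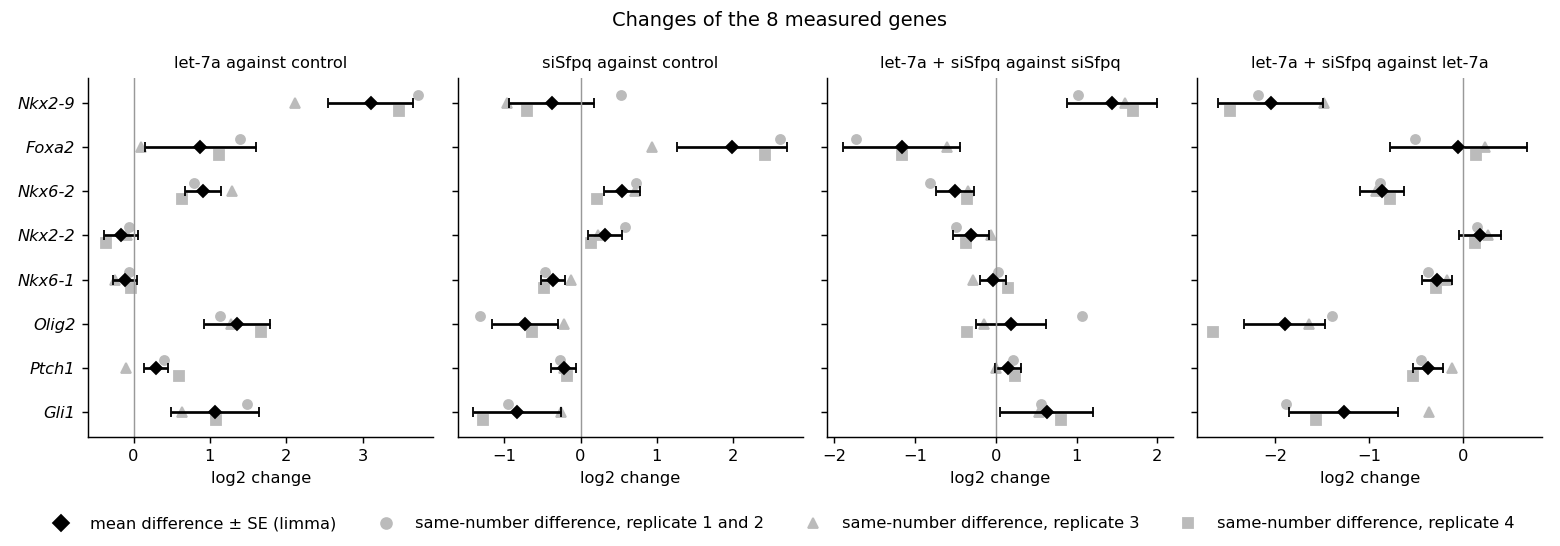
Log2 change (x axis) of the 8 measured genes in 4 comparisons, as black diamonds with the SE of the limma fit. Grey circles, triangles and squares are differences between samples of the same number, replicates 1 and 2, 3, and 4. With let-7a + siSfpq against let-7a the diamonds of Gli1, Ptch1, Nkx6-1 and Nkx6-2 lie below 0 by more than their SE. Those of Nkx2-9 and Olig2 do so too, as descriptions, since these genes were chosen or kept for their level in let-7a. The grey triangles of Foxa2 and Gli1 lie nearer to 0 than the other symbols with siSfpq against control.

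Over the members other than Nkx2-9, Foxa2 and Olig2, siSfpq against control called 0 of 5 genes with all samples, where 12.5% of all genes were called. It called 1 of 5 with the replicate block, Gli1 (36.8% of all genes), and 2 of 5 without replicate 3, Gli1 and Nkx6-1 (47.1% of all genes), each a share near or below that of all genes. The groups did not overlap for 3 of 5, namely Nkx6-2 (higher) and Nkx6-1 and Ptch1 (lower), against 28.9% of all genes. With Nkx2-9 added, let-7a + siSfpq against siSfpq called 0 of 6 (9.17% of all genes), 1 of 6 with the block, Nkx2-9 (32.5%), and 2 of 6 without replicate 3, Nkx2-9 and Gli1 (45.3%). In 2 of 6 the groups did not overlap, Nkx6-2 lower and Ptch1 higher (24.5% of all genes), the last with ranges that almost touch. At an unadjusted p under 0.05 (limma, no block) these comparisons held 5854 and 5326 of all genes. Of the members counted, Nkx6-1 and Nkx6-2 were among the first and Nkx2-9 among the second. The control samples of the siSfpq comparison are those of the comparison that chose Nkx2-9.

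For let-7a + siSfpq against let-7a, 0 of the same 5 genes were called, where 2.81% of all genes were called (limma, 3067 genes at an unadjusted p under 0.05, with Gli1, Nkx6-2 and Ptch1 among them). With the block 2 of 5 were called lower, Gli1 and Nkx6-2 (12.3% of all genes), and without replicate 3 3 of 5, with Ptch1 added (24.9% of all genes). None of the 5 was called higher in these fits. Groups did not overlap for Nkx6-2, 1 of 5 against 22.3% of all genes. The median change of the 5 was -0.37, where the median of all genes was 0.03. For let-7a against control the same 5 genes had a median difference of 0.29, against -0.04 over all genes, and 3 of 5 were higher. For let-7a + siSfpq against control the median was -0.07, with 2 of 5 higher. These 2 comparisons share the controls and are descriptions.

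Whether let-7a acted differently with and without siSfpq was tested as an interaction, the change with let-7a in siSfpq cells minus that in control cells, which includes the samples that chose Nkx2-9. With all samples it called 0 of the 5 members counted above and 0% of all genes (limma, 1174 genes at an unadjusted p under 0.05), and 0 of 5 with the replicate block, where it called 0.0204% of all genes. The largest value among the 5 was -1.41 ± 0.34 for Nkx6-2 (adjusted p = 0.722). Without replicate 3 it called 20.6% of all genes and 2 of 5 members, both negative, with -1.30 ± 0.31 for Nkx6-2 (adjusted p = 0.0255) and -0.61 ± 0.17 for Gli1 (adjusted p = 0.0432). For Foxa2 the value was -2.04, a description. For Nkx2-9 the changes with let-7a were 3.72, 2.12 and 3.47 without siSfpq and 1.01, 1.60 and 1.69 with it, as a description.

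**Figure D3:**
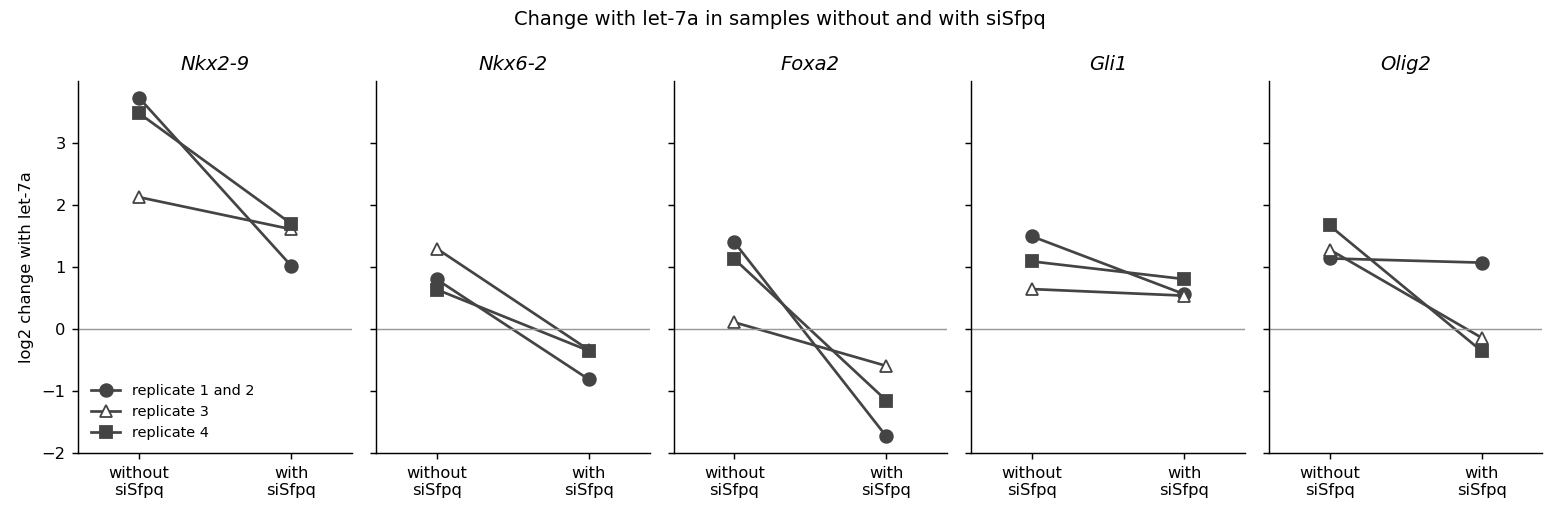
Log2 change with let-7a (y axis) in 5 genes, without siSfpq (let-7a against control) and with it (let-7a + siSfpq against siSfpq), lines joining values of the same replicate number (circles, open triangles and squares for replicates 1 and 2, 3, and 4). In Nkx6-2 all 3 lines cross from above to below 0 and in Foxa2 likewise, with the triangle of Foxa2 starting at 0.10, while in Nkx2-9 all 6 points lie above 0.

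Other genes of the Hedgehog pathway, taken from lists written by hand, were mostly not called in the fit with no block. Of the genes for ligands and their release 4 of 5 were measured. Hhat, the acyltransferase that palmitoylates the ligand, was 0.84 ± 0.20 higher with let-7a against control (adjusted p = 0.0327), but its brightest probe alone gave -0.22. Scube2, a secreted protein that frees the ligand, fell by 0.86 with siSfpq (SE 0.22, adjusted p = 0.0296). Of the other ligands, Ihh was well above background on all 16 arrays, between 6.02 and 6.43 in control, 5.92 and 6.11 in let-7a, 5.98 and 7.28 in siSfpq and 5.66 and 6.66 in let-7a + siSfpq, and was not called with or without the block. Without replicate 3 it was 0.88 ± 0.13 higher with siSfpq (adjusted p = 0.00114) and 0.65 lower with both than with siSfpq (adjusted p = 0.00511). Dhh was well above background on 1 array and was not tested. For scale, let-7a against control called 6.35% of all genes.

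The 6 receptors, co-receptors and surface inhibitors listed were all measured. The co-receptor Boc rose by 0.67 ± 0.17 with let-7a (adjusted p = 0.0396). Cdon, Gas1, Lrp2 and Smo, which together take up and pass on the ligand's signal at the membrane, and Hhip, a decoy that binds the ligand, were not called in the fit with no block. Hhip was 1.26 ± 0.38 higher in siSfpq (adjusted p = 0.0523, and 0.0310 with the block). With siSfpq the block called 2 of 6, Hhip higher and Smo lower, and the fit without replicate 3 called 4 of 6, Hhip higher and Smo, Lrp2 and Boc lower, where 36.8% and 47.1% of all genes were called. For let-7a + siSfpq against siSfpq the block called Boc and Smo higher, and for let-7a against control it called Cdon lower.

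Among 10 transducers inside the cell, Gli3, which acts mainly as a repressor of Hedgehog targets, had the lowest adjusted p of these lists. It was between 11.96 and 12.08 in control and between 11.27 and 11.43 in let-7a, a fall by 0.70 (SE 0.08, adjusted p = 0.000895). In siSfpq cells let-7a was followed by a fall by 0.48 (SE 0.08, adjusted p = 0.00858), from 12.02 to 12.05 down to 11.53 to 11.59. Both falls were called without replicate 3 as well. Gli2, the main activator of the pathway, fell by 0.85 with siSfpq (SE 0.21, adjusted p = 0.0261), and the other 8, with Sufu and Kif7 among them, were not called in that fit. The median change of the 10 with siSfpq was -0.20, against 0.01 over all genes. The calls among them with siSfpq were 1 higher and 5 lower with the replicate block, where 36.8% of all genes were called, and 1 higher and 4 lower without replicate 3, where 47.1% were. Of 4 genes for transport in the primary cilium, where the signal is relayed, none was called in the fit with no block. With the block Kif3a, a motor subunit of that transport, was 0.34 lower with siSfpq (adjusted p = 0.0234) and 0.34 higher with both than with siSfpq (adjusted p = 0.0270), and without replicate 3 it was called in each of the 4 comparisons.

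**Figure D4:**
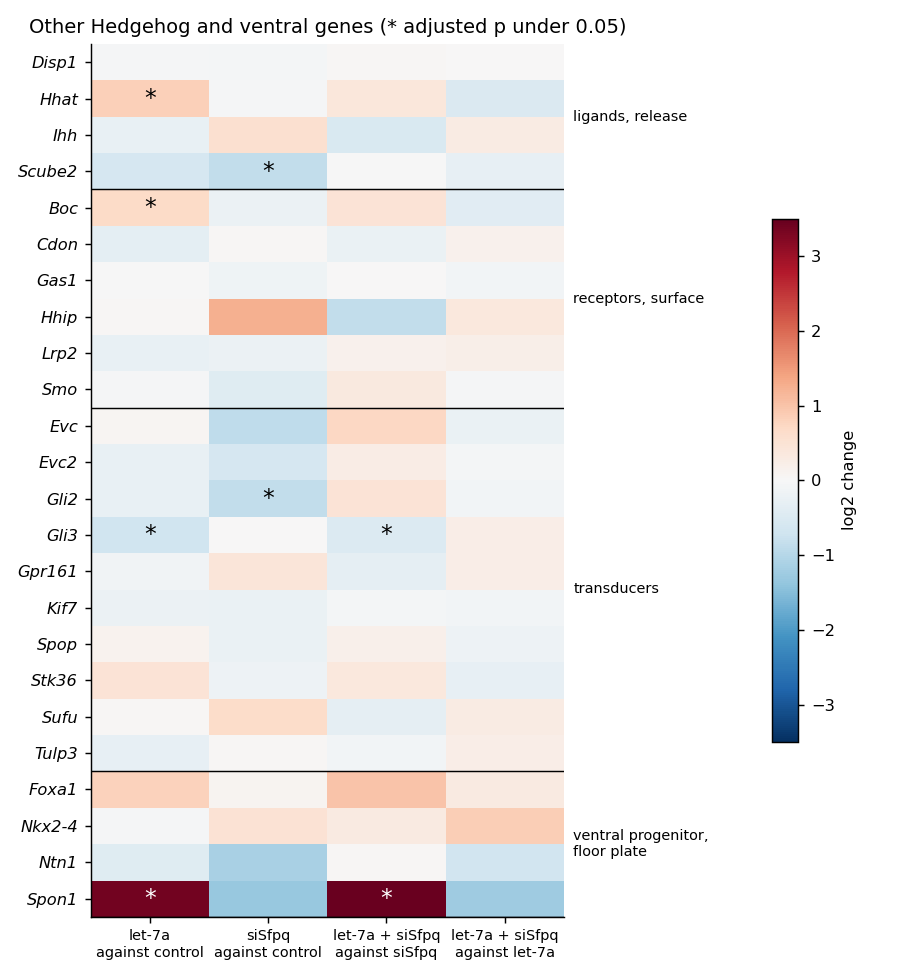
Log2 change (colour, red higher and blue lower) of genes of the Hedgehog pathway and of ventral progenitors and floor plate in 4 comparisons, with an asterisk where the adjusted p was under 0.05. Gli3 carries an asterisk in both columns that compare cells with and without let-7a. So does Spon1, which has the deepest colours and passed the filter only through the conditions with let-7a.

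Of 7 other genes of ventral progenitors and floor plate 4 were measured, and Nkx2-1 and Ferd3l were not well above background on any array. Spon1, which encodes the floor plate protein F-spondin, was between 2.83 and 4.69 in control and between 6.70 and 7.63 in let-7a, a difference of 3.37. With siSfpq present, the level in let-7a + siSfpq was at least 4.14-fold higher than in siSfpq, where the gene was not well above background on any array. Both are descriptions. Spon1 was kept only through the 2 conditions with let-7a, where it was well above background on 4 arrays each, against 2 in control. Foxa1, Nkx2-4 and Ntn1 were not called in the fit with no block. With siSfpq Ntn1, the guidance cue netrin-1, was called lower with the block (by 1.15, adjusted p = 0.00849) and without replicate 3, where Nkx2-4 was called higher.

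Neurons that leave the ventral domains were represented by 10 genes, of which 7 were measured, and Sim1, Mnx1 and En1 were not well above background on any array. Evx1 passed the filter only through siSfpq, and of the other 6 let-7a called 1 higher and 0 lower (median 0.48) and siSfpq 1 higher and 1 lower (median 0.38), where it called 5.73% of all genes higher and 6.75% lower. With the block, and likewise without replicate 3, siSfpq called 3 of the 6 higher, Isl2, Gata3 and Lhx3, and 1 lower, Isl1. In these 2 fits 36.8% and 47.1% of all genes were called in either direction. Isl1, a factor of motor neurons, rose by 2.18 ± 0.30 with let-7a (adjusted p = 0.00213) and fell by 1.94 with siSfpq (SE 0.30, adjusted p = 0.00692). It was 2.68 ± 0.30 higher with both than with siSfpq alone (adjusted p = 0.00135). In siSfpq its probe was well above background on 1 of 4 arrays, so the sizes of the differences from siSfpq are uncertain. Isl2, a paralog of Isl1, rose by 0.56 ± 0.13 with siSfpq (adjusted p = 0.0206). Evx1, a factor of ventral interneurons and also of the primitive streak, was 2.88 higher with siSfpq, a description for that reason.

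The list of class I and dorsal neural tube genes held 13 genes, of which 9 were measured. siSfpq called 5 of them lower and 0 higher, with a median change of -0.92, where 6.75% of all genes were called lower. With the block the calls were 1 higher and 6 lower, where 36.8% of all genes were called in either direction. Without replicate 3 they were 1 higher and 5 lower, where 47.1% of all genes were called. Dbx1, of an intermediate domain, rose by 1.26 ± 0.27 with let-7a (adjusted p = 0.0173), fell by 2.03 with siSfpq (SE 0.27, adjusted p = 0.00519), and was 2.32 lower with both than with let-7a (SE 0.27, adjusted p = 0.00416). Irx3, Msx2 and Olig3 fell with siSfpq by 1.19, 0.92 and 0.97 (adjusted p = 0.0346, 0.0150 and 0.0295).

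Markers of other cells also differed between the conditions, not always in the direction of the members, and their part in the members' values was not tested. In bulk RNA, fewer cells of a type and less RNA per cell cannot be told apart. All 7 neuron markers were measured. Their mean log2 level, taken over all 7 with no filter on dim probes, is given as a description. It ran from 8.36 to 9.04 in control, 9.46 to 10.27 in let-7a, 7.36 to 7.79 in siSfpq and 8.72 to 9.11 in let-7a + siSfpq. Only control and let-7a + siSfpq overlapped. Neurog1 was kept only through let-7a, and of the other 6 let-7a against control called 5 higher, siSfpq called 5 lower, let-7a + siSfpq against siSfpq called 4 higher and against let-7a 4 lower. Over all genes these calls made up 4.49%, 6.75%, 5.53% and 1.99%. Neurog2, a proneural factor, fell by 2.69 with siSfpq (SE 0.35, adjusted p = 0.00519) and was 1.51 lower with both than with let-7a (SE 0.35, adjusted p = 0.0451), and Tubb3, the neuronal tubulin, rose by 1.402 ± 0.21 with let-7a (adjusted p = 0.00281). Of 4 glia markers Pdgfra, also a gene of mesoderm and endoderm, was 2.19 ± 0.37 higher with both than with siSfpq (adjusted p = 0.00864), and Mbp fell by 0.81 with siSfpq (SE 0.17, adjusted p = 0.0162), as did Pdgfra without replicate 3.

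Foxa2 is also a gene of node and endoderm, so markers of these are given beside it. Among markers of node, notochord and streak 5 of 7 were measured, and Noto was not well above background on any array. Brachyury (T), a factor of streak and notochord, rose by 1.91 ± 0.36 with siSfpq (adjusted p = 0.0114) and was 2.39 lower with both than with siSfpq (SE 0.36, adjusted p = 0.00534). It fell by 2.29 with let-7a (SE 0.36, adjusted p = 0.00399), where the mean of Foxa2 was 0.87 higher, and was 1.81 ± 0.36 higher with both than with let-7a (adjusted p = 0.0255), where Foxa2 differed by -0.05. Without replicate 3 siSfpq called Eomes higher as well. Foxj1, the regulator of motile cilia in the node and floor plate, fell by 1.36 with siSfpq (SE 0.38, adjusted p = 0.0403), and Gsc fell by 1.44 with let-7a (SE 0.18, adjusted p = 0.00134). Of 9 endoderm markers 4 were measured, and Sox17 and Ttr were not well above background on any array. Gata4 passed the filter only through siSfpq, so its higher level there is a description. siSfpq called 0 of these 4 in the fit with no block. With the block it called none besides Gata4, where 36.8% of all genes were called. Without replicate 3 it called Gata6 higher and Cer1 lower besides Gata4, where 47.1% of all genes were called. Hnf4a, which was kept only through let-7a and was not well above background on any control array, was at least 1.78-fold higher in let-7a, a description.

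The genes whose levels most resembled each member were sought over the 12 samples, as the smallest root mean square difference of centred log2 levels among 19569 other genes. For Nkx2-9, whose own levels had a root mean square of 1.499 about their mean, the named genes among the 5 nearest were Padi2, Six3os1, Celf3 and Plekha6, with differences of 0.46 to 0.50. For Gli1 (0.96) they were Gdpd5, Zfp536 and Phf21b (0.34 to 0.36). For Foxa2 (1.10) the nearest was Lncpint (0.40), for Olig2 (0.93) Gpr158 (0.34) and for Nkx6-2 (0.42) Sct (0.23). No member was among the nearest genes of another. The levels share arrays and the offsets of replicate 3, and the likeness is a description.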

How the data were processed

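RNA of P19 cells was labelled with Cy3 and hybridized to 16 Agilent 1-colour arrays. The authors deposited scanner intensities from Agilent Feature Extraction 10.7.3.1, background-subtracted and detrended per the file headers but not normalized between arrays. They also deposited log2 values, quantile normalized with limma per the methods, which follow the median spot intensity without background subtraction. Probe coordinates are on mm9.

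Log2 processed intensities were quantile normalized with limma 3.58.1 (R 4.3.3). Scanner-marked outlier spots were left out, spots of a probe were averaged, and 42 probes with no value on an array were dropped. Probes entered only where some condition had all 4 of its arrays well above background. Probes named only by a region (16194 spots) were left out. Probes of a gene were averaged, leaving 19570 genes, named through RefSeq accessions, then symbols, and otherwise as in the files. No spot was saturated, and 33733 to 38464 of 59305 spots per array were well above background. The number of arrays limits the precision.

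The log2 difference of arrays 1 and 2 had an SD of 0.18 to 0.29, that of repeat spots 0.13 to 0.28 and that of other arrays of a condition 0.30 to 0.72, so arrays 1 and 2 were averaged. The methods name 3 replicates of transfected cells, the labels 4 per condition, and neither says whether they are separate cultures, so p-values measure only the spread between these samples, which may be technical. The 12 samples were fitted in a single limma model (lmFit and eBayes with trend), two-sided, with Benjamini-Hochberg adjustment over all genes and a threshold of 0.05. Samples of the same number deviated together from their group means (correlations of 0.29 to 0.71 in 18 pairs, against -0.63 to 0.18 for different numbers), so the numbers were taken to pair the samples. Deviations within a group sum to 0, so the values for different numbers are not independent of those for the same number. The fit with no block does not use this pairing. Replicates 1 and 2 of all conditions lay on 1 slide and 3 and 4 on another. "At least" folds set the brighter mean against the higher, on each array, of the dim probe's signal and the lowest signal well above background. Named were the 9 genes, from each list at most the 4 called genes with the largest changes per comparison, Sfpq, and the genes of nearest level. Further genes named as not called or not detected were chosen after their values were seen. Counts and medians of members leave out those that passed the filter through 1 condition alone, a choice made after their values were seen. Some genes of the lists are not reported here. The members and lists were chosen with earlier results of these data known. The fit was tested on simulated data. Figures were drawn with matplotlib 3.10.9 in Python 3.11.15.

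Tried besides were 75th percentile scaling, normexp background correction (offset 50), the authors' log2 values, dim probes all kept or filtered more strictly, the brightest probe of a gene, 16 arrays counted separately, slide or replicate as a block, only the groups compared, no trend, and leaving out replicates or single samples.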

Additional observations from a re-analysis of the deposited data

Results flagged for a closer look

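The change of Nkx6-2 with let-7a was positive in all 3 replicates without siSfpq and negative in all 3 with it, and its change with siSfpq was positive in all 3 without let-7a and negative in all 3 with it. The difference between these effects was -1.41 and missed the threshold when tested as an interaction (adjusted p = 0.722, limma, 0.127 with the replicate block, and 0.0255 without replicate 3, at -1.30). Foxa2 likewise differed with let-7a in opposite directions without and with siSfpq in all 3 replicates, by 1.39, 0.10 and 1.12 against -1.74, -0.60 and -1.16. Its interaction was -2.04, and -2.71 without replicate 3, both descriptions. Foxa2 passed the filter on dim probes only through siSfpq, which favours this sign.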

How the results depend on the processing

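Calls among the members depended on the model. The counts leave out Foxa2 and Olig2. With 16 arrays counted separately 2 of 5 genes were called for siSfpq against control and 1 of 6 for let-7a + siSfpq against siSfpq. In the same fit 1 of 5 was called against let-7a and 1 of 5 for the interaction. Slide as a block gave 2, 2, 3 and 1. The replicate block, which uses the pairing, gave 1, 1, 2 and 0. Over all genes the calls were 6767, 6074, 2593 and 158 with 16 arrays and 8240, 7670, 3575 and 542 with the slide block. The replicate block raised the calls over all genes to 7205, 6352, 2405 and 4, and for let-7a against control to 4095. Against let-7a, 1 was called with the authors' values (662 of all genes) and 1 without the intensity trend (494 of all genes). Leaving out replicates or single samples gave 0 to 2 calls for siSfpq, 0 to 2 against siSfpq, 0 to 3 against let-7a and 0 to 2 for the interaction, and the highest number in each came without replicate 3. Without the siSfpq sample of replicate 3 alone, 6539, 5820 and 1508 genes were called over all genes in these comparisons. With only the groups compared 0 genes were called for siSfpq against control and 198 against siSfpq, and with no filter 1310, 848 and 262. The cause was not tested. The median difference of the 5 members for let-7a against control ran from 0.091 with a stricter filter to 0.33, and from 0.14 to 0.49 with replicates or samples left out. Direction changed only in differences not called, apart from the brightest probe of Hhat (-0.22) for let-7a against control. For Nkx2-2 against let-7a it was -0.48 with no filter, for Nkx6-1 against siSfpq 0.057 with 75th percentile scaling, and for the Ptch1 interaction 0.014 with the brightest probe. With replicates or samples left out, values ran from -0.31 to 0.050 for the Nkx2-2 interaction, from -0.13 to 0.090 for Nkx6-1 against siSfpq and from -0.033 to 0.15 for its interaction, from -0.71 to 0.46 for Foxa2 against let-7a, and from -0.31 to 0.012 for the Ptch1 and from -1.16 to 0.068 for the Gli1 interaction. Within these ranges the Nkx2-2 interaction was 0.0091 without replicates 1 and 2 and 0.020 without siSfpq replicates 1 and 2, and Foxa2 was 0.18 and 0.38 without replicates 1 and 2 of all conditions or of let-7a. The Nkx6-1 interaction was 0.145 without the siSfpq sample of replicate 3. Signal near background limits Olig2, Foxa2, Nkx6-2 and the lower levels of Nkx2-9.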
